A study of Mus musculus with 16 samples.

Results

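The effect of a high-fat diet was measured in mouse ear skin that had been treated with phorbol 12-myristate 13-acetate (PMA). The comparison uses the 8 libraries whose titles place them in HFD_PMA (4 libraries) or ND_PMA (4 libraries), of 16 in the series. Both groups came from B6 mice, a common inbred laboratory strain. HFD_PMA mice had a high-fat diet for 8 weeks, and ND_PMA mice had the diet the labels call normal. PMA was put on the ear at 200 ng per ear, and whole ears were taken 24 h later. The other 8 libraries are HFD_cont and ND_cont, the same 2 diets in ear skin labelled as not treated, with 4 libraries each. By the series' design text each group stands for 4 mice, so the replicates are animals. The labels name no vehicle on the untreated ears, and give neither the composition of the diets nor the animals' sex, age or weight.

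PMA is a phorbol ester that imitates diacylglycerol and activates protein kinase C. In mouse skin it is a classical irritant and tumour promoter: keratinocytes switch on AP-1 target genes and divide, the epidermis thickens, and neutrophils and monocytes enter from the blood. The ear is 2 sheets of skin around a cartilage plate, with hair follicles, sebaceous glands, fat and a little striated muscle. A long high-fat diet raises circulating lipids and is known to change inflammation in fat, liver and skin.

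Total gene counts in the 8 libraries ran from 8169249 to 15571389. Levels are given as CPM, the count of a gene relative to the library's total after TMM scaling. Markers of ear skin were present in all 8 libraries: the summed keratinocyte markers lay between 27648 and 39083 CPM, and the summed cartilage markers between 319 and 695 CPM. Some libraries stood apart. HFD_PMA replicate 1 held 3624 CPM of hair shaft and inner root sheath markers, against 85.1 to 191 CPM in the other HFD_PMA libraries and 25.5 to 181 CPM in ND_PMA. ND_PMA replicate 2 was alone at the far end of the second principal component (18.8% of the variance), while the first (21.9%) had all HFD_PMA libraries on one side of 0 and all ND_PMA libraries on the other. Neutrophil marker sums and mitochondrial shares of counts reached higher in HFD_PMA than in ND_PMA, with overlap between the groups, and are given below.

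In PMA-treated skin the genes called higher with the high-fat diet included 6 of 10 tested Sprr2 genes of the cornified envelope, 4 of 12 antimicrobial genes and 5 of 15 genes of the IL-1 family. Those called lower included 10 of 18 collagens and 7 of 22 matrix glycoprotein and elastic fibre genes. Of 17604 genes tested, 387 (2.2%) differed between HFD_PMA and ND_PMA at a Benjamini-Hochberg (BH) adjusted p below 0.05 in edgeR's quasi-likelihood test. These genes are referred to as called. Of them 166 (0.943% of genes tested) were higher and 221 (1.26%) lower in HFD_PMA. The median size of the called differences was 0.80 on the log2 scale, and 63 genes were called with more than a 2-fold increase and 65 with more than a 2-fold decrease. The 4 values of one group lay wholly above those of the other for 364 of the 387, and for 1520 (8.63%) of all genes tested (691 higher, 3.93%, and 829 lower, 4.71%). The calls rest on the same values, so this lack of overlap is no separate support for them. It was also part of the rule by which some of the genes below were named. In data simulated for this comparison, 72.7% of genes changed 4-fold, 41.8% of those changed 2-fold and 5.97% of those changed 1.5-fold were recovered. Of the simulated calls 5.88% were false. Each gene was drawn independently there, with no library that stood apart, so these shares need not hold for the 387 calls. At 4 libraries a group, most simulated differences of 2-fold or less were thus missed. The count depended on single libraries: it fell to 116 without HFD_PMA replicate 2, and was 191 (126 higher, 65 lower) with HFD_PMA replicate 1 and ND_PMA replicate 2 both left out, of which 151 were among the 387. Beside the genes below, a bracket gives the number of the 8 libraries whose removal, 1 at a time, took the adjusted p over 0.05, with the highest p and the library behind it. Genes without such a bracket kept their call without each of the 8. The brackets do not cover a separate fit to the 8 PMA-treated libraries alone, which ended the call of 28 named genes.

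Among the epidermal genes with the largest increases were those of Sprr2, a family of small proline-rich proteins that keratinocytes crosslink into the cornified envelope. The family lies in the epidermal differentiation complex on chromosome 3. The count table lists 13 members, 10 were tested, and 6 of these (Sprr2b, Sprr2d, Sprr2e, Sprr2f, Sprr2h and Sprr2i) were called higher, none lower. Their promoters are printed because they share a feature that was not used to choose them: each holds TGAGTCA, a TPA response element named after another name of PMA and known as a binding motif of AP-1. The lines give the 250 bases before each annotated start, 5′ to 3′ on the plus strand of GRCm38.p6 (RefSeq), with the motif in capitals.
Sprr2b, chr3:92316455-92316704: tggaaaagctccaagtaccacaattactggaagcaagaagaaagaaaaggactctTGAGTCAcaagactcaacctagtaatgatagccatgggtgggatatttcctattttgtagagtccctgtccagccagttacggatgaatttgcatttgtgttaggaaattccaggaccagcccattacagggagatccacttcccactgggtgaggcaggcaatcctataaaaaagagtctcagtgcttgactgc
Sprr2d, chr3:92338890-92339139: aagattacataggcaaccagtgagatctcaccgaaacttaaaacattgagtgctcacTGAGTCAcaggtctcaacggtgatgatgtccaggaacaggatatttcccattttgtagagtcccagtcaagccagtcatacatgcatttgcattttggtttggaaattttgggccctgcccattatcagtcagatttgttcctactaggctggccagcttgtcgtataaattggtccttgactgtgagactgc
Sprr2e, chr3:92351893-92352142: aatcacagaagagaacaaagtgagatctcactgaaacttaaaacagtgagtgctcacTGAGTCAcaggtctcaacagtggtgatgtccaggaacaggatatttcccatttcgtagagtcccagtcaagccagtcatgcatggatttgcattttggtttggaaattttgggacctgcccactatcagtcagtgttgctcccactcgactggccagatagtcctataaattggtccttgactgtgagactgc
Sprr2f, chr3:92364937-92365186: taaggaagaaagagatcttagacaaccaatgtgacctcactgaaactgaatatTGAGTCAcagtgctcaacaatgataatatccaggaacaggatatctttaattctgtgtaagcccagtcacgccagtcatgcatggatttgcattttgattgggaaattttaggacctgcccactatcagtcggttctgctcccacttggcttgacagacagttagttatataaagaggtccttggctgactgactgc
Sprr2h, chr3:92385435-92385684: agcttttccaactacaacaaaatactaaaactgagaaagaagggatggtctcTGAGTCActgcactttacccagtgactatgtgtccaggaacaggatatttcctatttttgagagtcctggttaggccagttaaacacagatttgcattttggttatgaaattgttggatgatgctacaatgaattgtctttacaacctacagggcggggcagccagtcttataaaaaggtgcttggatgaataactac
Sprr2i, chr3:92407741-92407990: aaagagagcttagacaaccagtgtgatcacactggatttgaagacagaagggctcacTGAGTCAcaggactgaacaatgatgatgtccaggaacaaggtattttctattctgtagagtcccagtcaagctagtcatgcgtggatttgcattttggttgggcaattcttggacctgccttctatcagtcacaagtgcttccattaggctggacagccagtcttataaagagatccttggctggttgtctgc
The motif begins between 193 and 198 bases before the start in all 6. TGACTCA and TGAGTCA are reverse complements of each other, so the search covered both strands. The promoters of Sprr2a1, Sprr2a2 and Sprr2a3, which were tested and not called, hold neither form in the window from 250 bases before to 50 after the start. Their log2 fold changes were -0.20, 0.15 and -0.01. Sprr2k, which was too low to be tested, has 2 matches in that window, 196 and 182 bases before the start. Sprr2g (log2 fold change 2.02, edgeR adjusted p = 0.0842) had no promoter in the table. Of the 166 genes called higher 114 had a promoter there and 15 of them (13.2%) held the motif, against 10 of 167 genes called lower (5.99%), 5.23% of the 11688 tested genes with a promoter and 5.20% of all 32851 promoters. Without the Sprr2 family it was 9 of 108 (8.33%), so the family makes up a large part of the difference. Of the other motifs searched on both strands, TGACNNNGC, the antioxidant response element, stood in 21.9% of the promoters of genes called higher, 14.97% of those called lower and 17.0% of those tested. An NF-kB motif, GGG followed after 2 free bases by TTTCC, stood in 4.39%, 2.99% and 2.11%. A match shows the letters and not that a factor binds there. The Sprr2 genes are near copies of each other, so their shared matches, and the lack of a match in the Sprr2a genes, are not independent observations. Both groups received PMA, and a link between the motif and the diet difference was not tested.

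Sprr2d stood at 15.1, 37.8, 23.3 and 22.1 CPM in ND_PMA and 203, 226, 71 and 90.8 CPM in HFD_PMA, replicates 1 to 4 in that order here and below (log2 fold change 2.58, SE 0.50, edgeR adjusted p = 0.0148). Replicates 1 and 2 of HFD_PMA were the highest, and even its lowest library lay above all of ND_PMA. The near copy Sprr2e showed 3.57, 12.2, 5.06 and 4.21 CPM in ND_PMA and 61.3, 49.7, 18 and 21.2 CPM in HFD_PMA (log2 fold change 2.57, SE 0.47, edgeR adjusted p = 0.00822). Sprr2i went from 3.15, 7.01, 3.47 and 1.34 CPM in ND_PMA to 40.9, 27.7, 14 and 17.2 CPM in HFD_PMA (log2 fold change 2.72, SE 0.49, edgeR adjusted p = 0.0068). The same pair of HFD_PMA replicates led in both genes, and ND_PMA replicate 2 was the highest of its group. Sprr2f (log2 fold change 2.33, edgeR adjusted p = 0.013) and Sprr2h (1.37, adjusted p = 0.0313) showed smaller increases. In Sprr2h the groups overlapped, since HFD_PMA replicate 3 lay below ND_PMA replicate 2. Sprr2b was near 0 in ND_PMA, at 0, 0.515, 0.0722 and 0.411 CPM, and at 10.2, 7.79, 5.64 and 6.02 CPM in HFD_PMA. Its mean is under the level of 5 CPM set for naming, and it is named because it is a member of the family. Calls that ended without a library were Sprr2d (3 libraries, edgeR adjusted p = 0.0545 without ND_PMA replicate 3), Sprr2f (1 library, edgeR adjusted p = 0.053 without HFD_PMA replicate 2) and Sprr2h (5 libraries, edgeR adjusted p = 0.116 without HFD_PMA replicate 2). Sprr2 genes are near-identical in sequence, so reads may have been shared or lost among them in counting.

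Differentiation and barrier genes moved unevenly. Krt1, a keratin of the suprabasal epidermis and the most abundant epidermal gene called higher, stood at 921, 964, 1024 and 1269.6 CPM in ND_PMA and 3545, 3066, 2835 and 2535 CPM in HFD_PMA. The groups were far apart (log2 fold change 1.52, SE 0.21, edgeR adjusted p = 0.00115). Flg, which encodes filaggrin, the protein that bundles keratin filaments in the granular layer, stood at 108, 111, 132 and 180.4 CPM in ND_PMA and 491, 232, 359.9 and 307 CPM in HFD_PMA (log2 fold change 1.39, SE 0.22, edgeR adjusted p = 0.00285), with every HFD_PMA library above every ND_PMA library. Of 24 cornified envelope and terminal differentiation genes tested, 3 were called higher and none lower, and their median log2 fold change was 0.26 against -0.03 for all genes tested. Lce3f, a late cornified envelope gene, was not on that list and was also higher (1.95, edgeR adjusted p = 0.0222). Of 19 genes tested that are linked to epidermal thickening and wound repair, 8 were called higher and none lower, with a median log2 fold change of 1.25. Among them Serpinb3a, a protease inhibitor of stressed epithelium, stood at 14.4, 14.9, 31 and 25 CPM in ND_PMA and 123, 147, 98.2 and 62.2 CPM in HFD_PMA (log2 fold change 2.34, SE 0.46, edgeR adjusted p = 0.0137). Gjb6, a connexin of gap junctions, was at 30.05 ± 5.14 CPM in ND_PMA and 77.4 ± 20.5 CPM in HFD_PMA (SD, n = 4, edgeR adjusted p = 0.0278). Fabp5, a fatty acid carrier of keratinocytes, was at 222 ± 33.2 CPM in ND_PMA and 451 ± 160.1 CPM in HFD_PMA (SD, n = 4, edgeR adjusted p = 0.0278). Gja1, the gene of connexin 43, is not on the list and was 0.78 higher on the log2 scale (edgeR adjusted p = 0.0313). The count of 8 was 4 or 5 without each ND_PMA library, 5 without HFD_PMA replicate 1, 4 without that library and ND_PMA replicate 2, and 2 without HFD_PMA replicate 2. Calls ended for Serpinb3a (2 libraries, edgeR adjusted p = 0.0516 without HFD_PMA replicate 2), Gjb6 (6 libraries, edgeR adjusted p = 0.0821 without HFD_PMA replicate 2), Fabp5 (6 libraries, edgeR adjusted p = 0.0907 without HFD_PMA replicate 2), Gja1 (5 libraries, edgeR adjusted p = 0.0887 without HFD_PMA replicate 2) and Lce3f (5 libraries, edgeR adjusted p = 0.0674 without HFD_PMA replicate 2). Summed keratinocyte markers were 27648 to 33738 CPM in ND_PMA and 36386 to 39083 CPM in HFD_PMA. The part of this shift in the genes above was not tested. In bulk tissue, a change in the number of cells of a type and a change in RNA per cell cannot be told apart.

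Junction and basal genes mostly did not pass the test. Of 21 desmosome and junction genes tested, 1 was called: Dsg1c, a desmoglein, at 15.9, 6.75, 10.8 and 16.4 CPM in ND_PMA and 4.62, 3.74, 3.44 and 2.26 CPM in HFD_PMA (log2 fold change -1.81, SE 0.39, edgeR adjusted p = 0.0174). Every HFD_PMA library was below every ND_PMA library. Of 13 basal keratinocyte genes the one called was Col17a1, a collagen of the hemidesmosome, which was lower by a small amount (log2 fold change -0.47, SE 0.11, edgeR adjusted p = 0.031). Krt84, a keratin of hair and nail type, was at 4.23, 5.21, 5.63 and 8.22 CPM in ND_PMA and 21.2, 17.1, 19.96 and 23.7 CPM in HFD_PMA (log2 fold change 1.82, SE 0.32, edgeR adjusted p = 0.00605). The 4 HFD_PMA values were close to each other and did not follow the hair shaft markers of HFD_PMA replicate 1. Calls ended for Dsg1c (3 libraries, edgeR adjusted p = 0.0586 without HFD_PMA replicate 2) and Col17a1 (6 libraries, edgeR adjusted p = 0.142 without HFD_PMA replicate 1).

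Epidermal kallikreins are serine proteases that cut the links between corneocytes and process antimicrobial peptides and cytokines. Their genes sit side by side on chromosome 7. Of 15 kallikreins and protease inhibitors tested 4 were called, all higher, and 14 of 15 had a positive log2 fold change (median 0.50). Klk13 stood at 68.3, 125, 76.7 and 101 CPM in ND_PMA and 307, 419, 202 and 207 CPM in HFD_PMA (log2 fold change 1.61, SE 0.31, edgeR adjusted p = 0.0111). Its 2 highest libraries were HFD_PMA replicates 1 and 2. Klk8 had the tightest groups, with 87.8, 89.9, 99.1 and 101 CPM in ND_PMA and 151, 162, 153 and 151 CPM in HFD_PMA (log2 fold change 0.71, SE 0.10, edgeR adjusted p = 0.00171). Klk9 was at 88.1 ± 4.57 CPM in ND_PMA and 140.2 ± 14 CPM in HFD_PMA (SD, n = 4; log2 fold change 0.67, SE 0.12, edgeR adjusted p = 0.00837). Klk6 was at 200.5, 231, 202 and 185 CPM in ND_PMA and 379.8, 489.6, 277 and 301 CPM in HFD_PMA (log2 fold change 0.82, SE 0.20, edgeR adjusted p = 0.0312). All 4 genes had groups that did not overlap. The call ended for Klk6 (5 libraries, edgeR adjusted p = 0.121 without HFD_PMA replicate 2). An exon of Klk8 shares bases with a gene on the opposite strand, and no label says whether the counting used strand. Other named genes that share exon bases are listed with the processing.

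Antimicrobial genes showed some of the steepest differences. Of 12 tested 4 were called, all higher, and the median log2 fold change was 1.23. S100a7a, a member of the S100 proteins made by inflamed keratinocytes, stood at 4.4, 2.96, 2.82 and 4.11 CPM in ND_PMA and 46.6, 60.8, 12.8 and 23.4 CPM in HFD_PMA. Every ND_PMA library was under 5 CPM and every HFD_PMA library over 10 CPM (log2 fold change 3.33, SE 0.68, edgeR adjusted p = 0.0148). Lcn2, a lipocalin that binds bacterial siderophores, was at 12.9, 28.6, 19.4 and 11.5 CPM in ND_PMA and 62.5, 91.3, 56.1 and 47.9 CPM in HFD_PMA (log2 fold change 1.83, SE 0.31, edgeR adjusted p = 0.00398). Chil1, a chitinase-like protein of epithelium and macrophages, was abundant, at 653, 1044, 758 and 686 CPM in ND_PMA and 1894, 2537, 2035 and 1297 CPM in HFD_PMA (log2 fold change 1.30, SE 0.25, edgeR adjusted p = 0.00895). Defb1, a beta-defensin, was at 5.14, 4.7, 6.72 and 5.24 CPM in ND_PMA and 14.2, 15.8, 10.02 and 13 CPM in HFD_PMA (log2 fold change 1.28, SE 0.24, edgeR adjusted p = 0.00837). None of these groups overlapped. The call of S100a7a (3 libraries, edgeR adjusted p = 0.0605 without ND_PMA replicate 2) ended without a library.

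**Figure D1:**
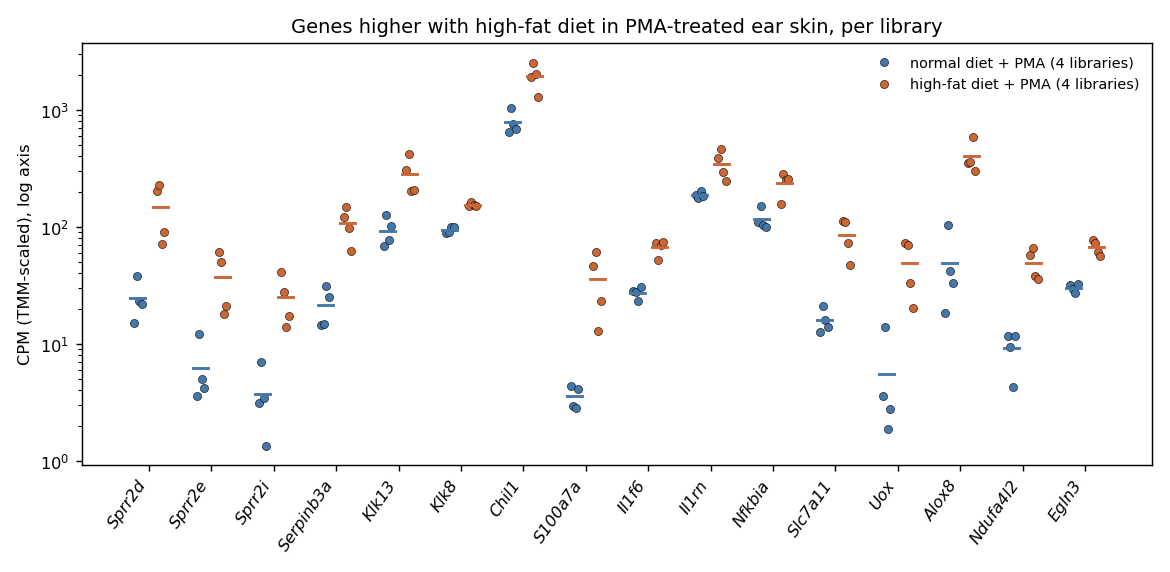
Level of 16 genes called higher with high-fat diet in PMA-treated ear skin, in CPM on a log axis. Each point is 1 library (4 per group, replicates 1 to 4 from left to right) and each bar the group mean; HFD_PMA replicates 1 and 2 are the highest points for Sprr2d, S100a7a and Uox.

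Neutrophil marker sums were high in part of the HFD_PMA libraries. S100a8, which with S100a9 makes up calprotectin in neutrophils and stressed keratinocytes, stood at 12.1, 111, 31.4 and 38.4 CPM in ND_PMA and 749, 380.4, 139 and 182 CPM in HFD_PMA. It did not pass the test (log2 fold change 2.90, SE 0.86, edgeR adjusted p = 0.111). S100a9 stood at 6.05, 43.2, 18.5 and 19.4 CPM in ND_PMA and 366, 195, 64.9 and 78 CPM in HFD_PMA and did not pass either (log2 fold change 3.004, SE 0.76, edgeR adjusted p = 0.0607), although the groups did not overlap in either gene. The 15 neutrophil markers summed to 124, 366, 154 and 143 CPM in ND_PMA and to 1321, 833, 354 and 341 CPM in HFD_PMA. HFD_PMA replicates 3 and 4 lay within the range of ND_PMA, and none of the 10 markers tested was called. S100a8 and S100a9 gave most of the sum in HFD_PMA replicates 1 and 2, and stressed keratinocytes make them too. Those replicates, which led in many genes above, thus also had the highest sums of these markers. The part of neutrophils and of keratinocytes in the sums was not tested. Nor was the part of the sums in the other results.

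Among the IL-1 family, whose IL-36 branch acts on and from keratinocytes, 5 of 15 tested genes were called, all higher, with a median of 0.54. Il1f6, the gene of IL-36 alpha, stood at 28.3, 27.5, 23.3 and 30.7 CPM in ND_PMA and 72.7, 52.5, 69.4 and 74.6 CPM in HFD_PMA (log2 fold change 1.29, SE 0.23, edgeR adjusted p = 0.0068). All HFD_PMA libraries were well above ND_PMA, and replicate 2, not 1, was the lowest of them. Il1f9, the gene of IL-36 gamma, was at 149 ± 17.7 CPM in ND_PMA and 240.1 ± 25.2 CPM in HFD_PMA (SD, n = 4; log2 fold change 0.69, SE 0.13, edgeR adjusted p = 0.00813). Antagonists moved the same way: Il1f5, which encodes the IL-36 receptor antagonist, was at 300.1 ± 37 CPM in ND_PMA and 464 ± 40.4 CPM in HFD_PMA (SD, n = 4; log2 fold change 0.63, SE 0.12, edgeR adjusted p = 0.00813). Il1rn, the IL-1 receptor antagonist, stood at 189, 176, 203 and 183 CPM in ND_PMA and 386, 464, 293 and 248 CPM in HFD_PMA (log2 fold change 0.89, SE 0.15, edgeR adjusted p = 0.00378). Il18, an alarmin stored in epithelium, was at 26, 17.9, 27.2 and 31.6 CPM in ND_PMA and 46.4, 37.1, 43.4 and 48.8 CPM in HFD_PMA (log2 fold change 0.78, SE 0.16, edgeR adjusted p = 0.0148). The groups of all 5 genes were apart. The count of called genes was 5 without each library in turn and without both libraries that stood apart. It was 4 in the fit to the 8 PMA-treated libraries alone, where Il18 was not called (edgeR adjusted p = 0.0662).

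In the TNF and NF-kB pathway 1 of 15 genes tested was called. Nfkbia, the one called, which encodes the inhibitor that holds NF-kB in the cytoplasm and is itself an NF-kB target, stood at 109, 152, 105 and 100.1 CPM in ND_PMA and 158, 282, 253 and 256 CPM in HFD_PMA (log2 fold change 1.03, SE 0.20, edgeR adjusted p = 0.0108). The lowest HFD_PMA library, replicate 1, was just above the highest ND_PMA library, replicate 2. The list's median log2 fold change was 0.37. Nfkbiz, a nuclear cofactor of NF-kB downstream of IL-17 and IL-36, was at 55.1, 69.7, 61.8 and 70.7 CPM in ND_PMA and 111, 142, 156 and 107 CPM in HFD_PMA (log2 fold change 1.01, SE 0.21, edgeR adjusted p = 0.0158), and was the one called of 9 genes tested of the IL-17 axis. Ier3, an immediate early gene, was 0.92 higher on the log2 scale (edgeR adjusted p = 0.0213). Calls ended for Nfkbiz (1 library, edgeR adjusted p = 0.0536 without HFD_PMA replicate 2) and Ier3 (4 libraries, edgeR adjusted p = 0.0731 without ND_PMA replicate 3). None of 17 interferon-stimulated genes and none of 16 cytokine receptor, STAT and SOCS genes was called.

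Chemokines went in both directions. Ccl3, which attracts neutrophils and monocytes, stood at 0.332, 1.8, 0.433 and 0.617 CPM in ND_PMA and 18.5, 19.95, 9.55 and 2.88 CPM in HFD_PMA (log2 fold change 3.95, SE 0.82, edgeR adjusted p = 0.0148). ND_PMA was under 2 CPM throughout and HFD_PMA replicate 4 was close to it. Ccl3 was the one called of 8 neutrophil-attracting chemokines and growth factors tested, and all 8 had a positive log2 fold change (median 1.18). Clec4d, a C-type lectin of monocytes and neutrophils, was at 4.23, 7.4, 2.17 and 2.88 CPM in ND_PMA and 35.7, 52.8, 13.5 and 7.77 CPM in HFD_PMA (log2 fold change 2.71, SE 0.65, edgeR adjusted p = 0.032). Of 16 chemokines for monocytes, dendritic cells and T cells, 3 were called, all lower (median -0.62). Ccl24, an eotaxin, was at 14.9, 17.3, 10.04 and 6.89 CPM in ND_PMA and 2.31, 3.5, 2.58 and 2.76 CPM in HFD_PMA (log2 fold change -2.14, SE 0.35, edgeR adjusted p = 0.00378). Every HFD_PMA library was under 4 CPM. Ccl6, a macrophage chemokine, was at 123 ± 28.4 CPM in ND_PMA and 69.6 ± 10.4 CPM in HFD_PMA (SD, n = 4; log2 fold change -0.83, SE 0.17, edgeR adjusted p = 0.0137). Cx3cl1, fractalkine, was at 49.6 ± 7.48 CPM in ND_PMA and 29.8 ± 3.6 CPM in HFD_PMA (SD, n = 4; log2 fold change -0.74, SE 0.16, edgeR adjusted p = 0.0165). Tslp, an epithelial cytokine that primes type 2 responses, was at 32.8, 21.5, 27.2 and 32.7 CPM in ND_PMA and 7.99, 12.6, 5.56 and 15.9 CPM in HFD_PMA (log2 fold change -1.45, SE 0.36, edgeR adjusted p = 0.0365), with all 4 HFD_PMA libraries below the 4 of ND_PMA. Calls ended for Ccl3 (2 libraries, edgeR adjusted p = 0.0674 without HFD_PMA replicate 2), Clec4d (5 libraries, edgeR adjusted p = 0.156 without HFD_PMA replicate 2), Ccl6 (2 libraries, edgeR adjusted p = 0.0571 without HFD_PMA replicate 1), Cx3cl1 (4 libraries, edgeR adjusted p = 0.0674 without HFD_PMA replicate 3) and Tslp (7 libraries, edgeR adjusted p = 0.109 without HFD_PMA replicate 1).

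Of 21 hypoxia and glycolysis genes tested 3 were called higher (Egln3, Pdk1 and Pgk1) and none lower, with a median log2 fold change of 0.39. Off that list, Ndufa4l2, a mitochondrial protein induced by HIF-1, stood at 11.8, 9.46, 4.26 and 11.7 CPM in ND_PMA and 57, 65.9, 38.3 and 36 CPM in HFD_PMA and had the smallest adjusted p of all genes tested (log2 fold change 2.41, SE 0.28, edgeR adjusted p = 0.000524). All HFD_PMA libraries were above 30 CPM and all ND_PMA libraries below 12 CPM. Ndufa4l2, like Klk8, shares exon bases with a gene on the opposite strand. Egln3, a prolyl hydroxylase that marks HIF for breakdown and is itself a HIF target, was at 31.7, 29.7, 27.1 and 32.7 CPM in ND_PMA and 76.8, 72.3, 61.4 and 56.4 CPM in HFD_PMA (log2 fold change 1.14, SE 0.19, edgeR adjusted p = 0.00475). The group means of Pdk1, a kinase that shuts pyruvate out of mitochondria, were 90.2 ± 21.7 CPM in ND_PMA and 143 ± 5.06 CPM in HFD_PMA (SD, n = 4, edgeR adjusted p = 0.0224). Pgk1, a glycolytic kinase, had 43.5 ± 1.83 CPM in ND_PMA and 71.6 ± 17.7 CPM in HFD_PMA (SD, n = 4, edgeR adjusted p = 0.0278). The count was 1 without ND_PMA replicate 1, ND_PMA replicate 3 or HFD_PMA replicate 2. Calls ended for Pdk1 (3 libraries, edgeR adjusted p = 0.0713 without ND_PMA replicate 1) and Pgk1 (5 libraries, edgeR adjusted p = 0.101 without HFD_PMA replicate 2). None of 24 nuclear-encoded subunits of oxidative phosphorylation was called.

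Slc7a11, the cystine importer that supplies glutathione synthesis, stood at 12.5, 20.9, 16 and 14 CPM in ND_PMA and 113, 109.9, 72.9 and 47.1 CPM in HFD_PMA (log2 fold change 2.43, SE 0.40, edgeR adjusted p = 0.00378). Every HFD_PMA library was over 2-fold above the highest ND_PMA library. Prdx1, a peroxiredoxin, was at 404 ± 61.5 CPM in ND_PMA and 616 ± 72.6 CPM in HFD_PMA (SD, n = 4; log2 fold change 0.61, SE 0.14, edgeR adjusted p = 0.0217). These were the 2 called, both higher, of 18 NRF2 targets tested (median 0.18). Of 18 glutathione S-transferases the 2 called were also higher: Gsta4, which detoxifies lipid aldehydes, at 47.5 ± 2.46 CPM in ND_PMA and 97.3 ± 28.2 CPM in HFD_PMA (SD, n = 4, edgeR adjusted p = 0.0172), and Gsto1 at 114 ± 11.5 CPM in ND_PMA and 175 ± 29.5 CPM in HFD_PMA (SD, n = 4, edgeR adjusted p = 0.0445). Uox, urate oxidase, an enzyme of purine breakdown, stood at 3.57, 13.8, 1.88 and 2.78 CPM in ND_PMA and 72.4, 69.3, 33.3 and 20.2 CPM in HFD_PMA (log2 fold change 3.13, SE 0.59, edgeR adjusted p = 0.0094). ND_PMA replicate 2 was closest to the HFD_PMA range but below it. Calls ended for Prdx1 (3 libraries, edgeR adjusted p = 0.0663 without HFD_PMA replicate 2), Gsta4 (1 library, edgeR adjusted p = 0.0821 without HFD_PMA replicate 2) and Gsto1 (7 libraries, edgeR adjusted p = 0.113 without HFD_PMA replicate 2).

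Cytochrome P450 genes went the other way, with 4 of 16 tested called lower and none higher (median -0.22). Cyp2e1, which oxidises small molecules and fatty acids, stood at 22, 42, 19.8 and 29.9 CPM in ND_PMA and 7.61, 7.15, 5.95 and 6.02 CPM in HFD_PMA. The HFD_PMA values were tight and all under 8 CPM (log2 fold change -2.09, SE 0.27, edgeR adjusted p = 0.00107). The other 3 on the list were Cyp1a1, the classical target of the aryl hydrocarbon receptor (log2 fold change -1.26, edgeR adjusted p = 0.0413), Cyp26b1, which degrades retinoic acid (-0.95, adjusted p = 0.0213), and Cyp4b1 (-0.75, adjusted p = 0.017). In Cyp1a1 and Cyp26b1 the highest HFD_PMA library, replicate 4, was above the lowest of ND_PMA. Cyp2b23, a family member off the list, was at 21.4, 17, 45.7 and 29.2 CPM in ND_PMA and 1.73, 2.23, 2.82 and 13.8 CPM in HFD_PMA (log2 fold change -2.52, SE 0.60, edgeR adjusted p = 0.0364), where HFD_PMA replicate 4 was far above the other 3. Calls ended for Cyp1a1 (5 libraries, edgeR adjusted p = 0.138 without HFD_PMA replicate 2), Cyp26b1 (5 libraries, edgeR adjusted p = 0.0978 without HFD_PMA replicate 2), Cyp4b1 (3 libraries, edgeR adjusted p = 0.0821 without HFD_PMA replicate 2) and Cyp2b23 (7 libraries, edgeR adjusted p = 0.124 without HFD_PMA replicate 2), and 1 of the 4 on the list was called without HFD_PMA replicate 1 or HFD_PMA replicate 2.

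In lipid metabolism few genes passed the test. Alox8, an arachidonate lipoxygenase of mouse epidermis, rose from 18.2, 103, 42.3 and 33.2 CPM in ND_PMA to 352, 357, 591 and 298 CPM in HFD_PMA (log2 fold change 3.02, SE 0.61, edgeR adjusted p = 0.0237). The groups were apart by over 2-fold, and it was the one called of 13 lipoxygenase and hepoxilin genes. Pla2g4e, a phospholipase A2, was at 72.5, 96, 113 and 87.7 CPM in ND_PMA and 204, 235, 159 and 162 CPM in HFD_PMA (log2 fold change 1.04, SE 0.20, edgeR adjusted p = 0.0103). With Ptgr1, a prostaglandin reductase (0.59, edgeR adjusted p = 0.0306), it made 2 called higher of 20 prostaglandin genes. Fads1, the delta-5 desaturase of polyunsaturated fatty acids, was at 44.8, 56.9, 37.6 and 28.4 CPM in ND_PMA and 12.8, 13.8, 20.9 and 20.3 CPM in HFD_PMA (log2 fold change -1.31, SE 0.24, edgeR adjusted p = 0.00828). Elovl5, an elongase of the same route, was at 117 ± 18.8 CPM in ND_PMA and 76.9 ± 7.6 CPM in HFD_PMA (SD, n = 4; log2 fold change -0.60, SE 0.14, edgeR adjusted p = 0.0278). These 2 were the ones called of 17 fatty acid synthesis, desaturation and elongation genes. Without HFD_PMA replicate 1 and ND_PMA replicate 2 neither was. None was called of 22 cholesterol genes, 21 fatty acid oxidation and PPAR target genes or 21 barrier ceramide and lipid genes. Calls ended for Alox8 (4 libraries, edgeR adjusted p = 0.0746 without ND_PMA replicate 3), Ptgr1 (4 libraries, edgeR adjusted p = 0.0989 without ND_PMA replicate 3) and Elovl5 (5 libraries, edgeR adjusted p = 0.103 without HFD_PMA replicate 3).

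All 23 mitosis genes tested had a positive log2 fold change, with a median of 0.78, and 3 were called higher. The 21 DNA replication genes had a median of 0.09 and none was called. Ube2c, which helps start anaphase, stood at 12.4, 11.4, 9.39 and 11.9 CPM in ND_PMA and 24.9, 51, 18.7 and 22.9 CPM in HFD_PMA (log2 fold change 1.38, SE 0.30, edgeR adjusted p = 0.0194). HFD_PMA replicate 2 was the highest. Cenpa, the centromeric histone, was at 32.9, 29.5, 21.8 and 30.2 CPM in ND_PMA and 68.4, 93.5, 56.5 and 35.5 CPM in HFD_PMA (log2 fold change 1.15, SE 0.25, edgeR adjusted p = 0.0172). Ccnb2, a mitotic cyclin, was at 36.3, 21.7, 35.3 and 36.3 CPM in ND_PMA and 62.3, 96.1, 59.8 and 48.3 CPM in HFD_PMA (log2 fold change 1.04, SE 0.26, edgeR adjusted p = 0.0375), and Cdca3, a mitotic gene off the list, at 24.2 ± 2.16 CPM in ND_PMA and 56.3 ± 18.1 CPM in HFD_PMA (SD, n = 4; log2 fold change 1.22, SE 0.25, edgeR adjusted p = 0.0148). In all 4 genes the groups were apart. Calls ended for Ube2c (2 libraries, edgeR adjusted p = 0.0978 without HFD_PMA replicate 2), Cenpa (2 libraries, edgeR adjusted p = 0.0821 without HFD_PMA replicate 2), Ccnb2 (6 libraries, edgeR adjusted p = 0.139 without HFD_PMA replicate 2) and Cdca3 (1 library, edgeR adjusted p = 0.0676 without HFD_PMA replicate 2). The count of called mitosis genes was 0 without ND_PMA replicate 3, 0 without HFD_PMA replicate 2, and 0 without HFD_PMA replicate 1 and ND_PMA replicate 2 together. It ranged from 0 to 13 over all settings. Whether mitosis and replication genes differ from each other was not tested.

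Of 24 cytosolic ribosomal protein genes tested, 3 were called higher and none lower (median 0.25). Rps2 was at 389.7, 429, 365 and 328 CPM in ND_PMA and 499, 645, 579 and 626 CPM in HFD_PMA (log2 fold change 0.64, SE 0.11, edgeR adjusted p = 0.00605), and Rpl7 at 154 ± 20.9 CPM in ND_PMA and 244 ± 27.8 CPM in HFD_PMA (SD, n = 4; log2 fold change 0.66, SE 0.14, edgeR adjusted p = 0.0145). Each Rps2 value in HFD_PMA was above all of ND_PMA. mt-Nd1, a mitochondrially encoded subunit of complex I, was at 5404, 2985, 3901 and 3782 CPM in ND_PMA and 5389, 6979.7, 6462 and 8189.6 CPM in HFD_PMA (log2 fold change 0.75, SE 0.17, edgeR adjusted p = 0.0267), with HFD_PMA replicate 1 level with ND_PMA replicate 1. The mitochondrial share of counts was 1.35 to 2.44% in ND_PMA and 2.28 to 3.06% in HFD_PMA. The call ended for mt-Nd1 (5 libraries, edgeR adjusted p = 0.07 without ND_PMA replicate 4).

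**Figure D2:**
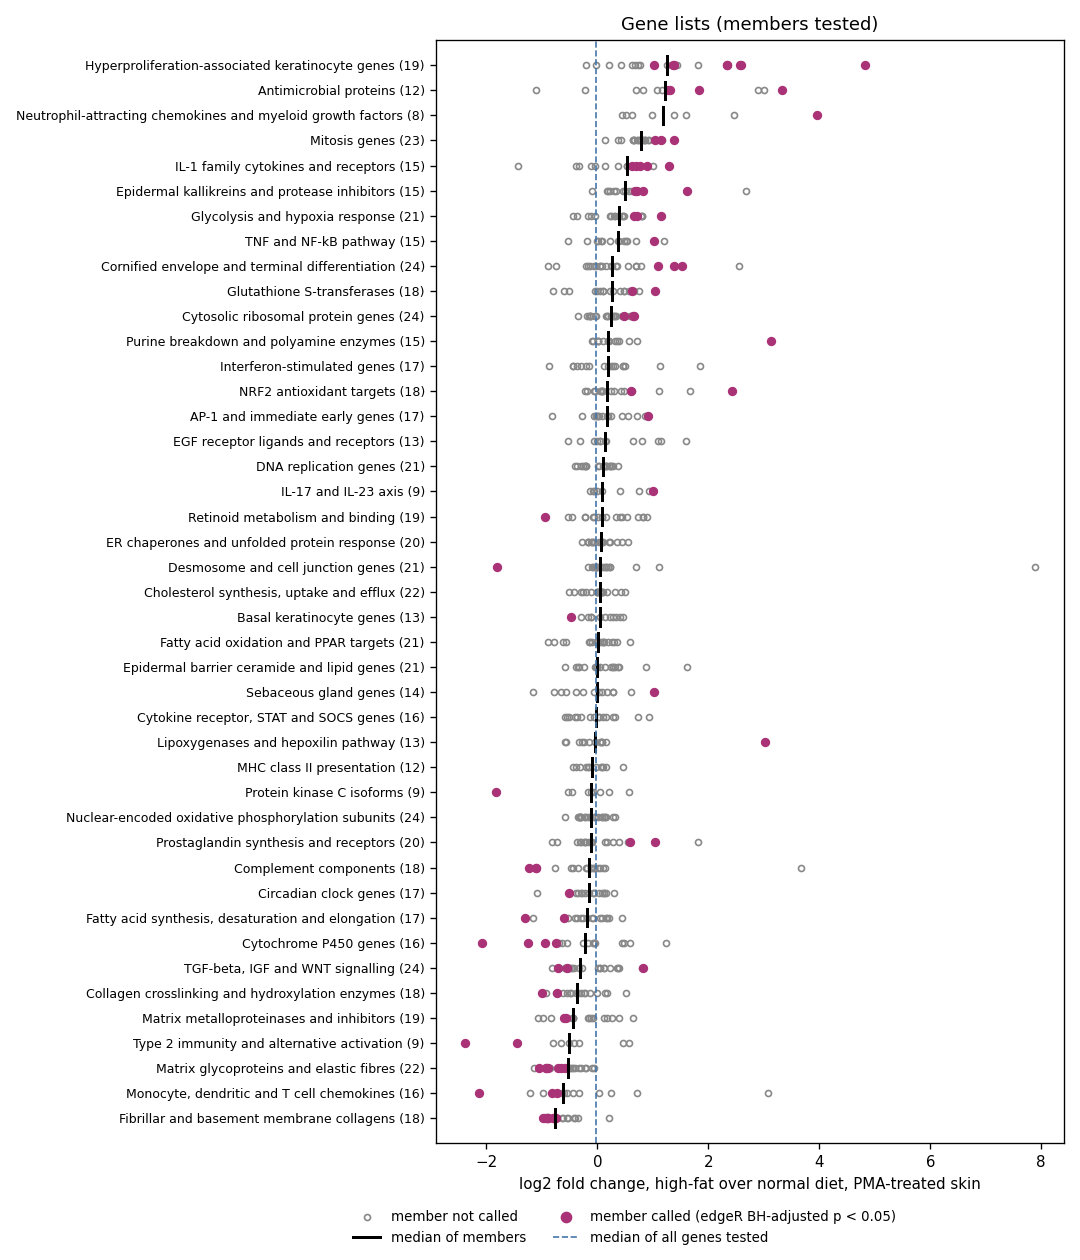
Log2 fold change of HFD_PMA over ND_PMA for every tested member of 43 gene lists. Each circle is 1 gene, filled where edgeR's BH-adjusted p was below 0.05, the black bar is the list's median and the dashed line the median of all genes tested (-0.03); lists of keratinocyte repair, antimicrobial and mitosis genes lie to the right and collagen and matrix lists to the left.

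Collagens are the load-bearing fibres of the dermis and of basement membranes. Of 18 tested, more than on any other list, 10 were called lower and none higher, and 17 had a negative log2 fold change (median -0.77). Col6a2, a chain of the beaded collagen VI microfibrils around cells, stood at 246, 308, 275 and 182 CPM in ND_PMA and 119, 118, 132 and 144 CPM in HFD_PMA (log2 fold change -0.98, SE 0.14, edgeR adjusted p = 0.00171). Its partner chain Col6a1 was at 575, 739.7, 572 and 459 CPM in ND_PMA and 304, 287, 415 and 253 CPM in HFD_PMA (log2 fold change -0.90, SE 0.16, edgeR adjusted p = 0.00605), and the third chain, Col6a3, was -0.80 (edgeR adjusted p = 0.00813). All 3 had groups that did not overlap. Col8a1, a short-chain collagen of vessels and remodelling tissue, was at 518, 373, 486 and 498 CPM in ND_PMA and 205, 230.4, 274 and 299.9 CPM in HFD_PMA (log2 fold change -0.89, SE 0.14, edgeR adjusted p = 0.00285). Col5a2, which sets the width of collagen I fibrils, was at 175, 221, 140.2 and 169.9 CPM in ND_PMA and 114, 78.2, 94.9 and 88.5 CPM in HFD_PMA (log2 fold change -0.91, SE 0.17, edgeR adjusted p = 0.0077). The main fibrillar genes were Col1a2, at 1023, 1741, 1184 and 1141 CPM in ND_PMA and 693, 484, 887 and 656 CPM in HFD_PMA (log2 fold change -0.90, SE 0.18, edgeR adjusted p = 0.0103), Col1a1 (log2 fold change -0.94, edgeR adjusted p = 0.0345) and Col3a1 (-0.79, adjusted p = 0.0499). In Col1a1 and Col3a1 HFD_PMA replicate 3 was within the ND_PMA range. Col4a1 (-0.79, adjusted p = 0.0338) and Col4a2 (-0.75, adjusted p = 0.0186), a head-to-head pair that forms the basement membrane network, were the other 2. Calls ended for Col1a2 (1 library, edgeR adjusted p = 0.0536 without HFD_PMA replicate 2), Col1a1 (5 libraries, edgeR adjusted p = 0.158 without ND_PMA replicate 2), Col3a1 (6 libraries, edgeR adjusted p = 0.198 without ND_PMA replicate 2), Col4a1 (6 libraries, edgeR adjusted p = 0.14 without HFD_PMA replicate 2) and Col4a2 (3 libraries, edgeR adjusted p = 0.0756 without HFD_PMA replicate 2), and leaving out HFD_PMA replicate 2 lowered the number of called collagens to 5. It was 6 without ND_PMA replicate 2 or HFD_PMA replicate 4, 7 to 10 without each of the other 5, and 4 without HFD_PMA replicate 1 and ND_PMA replicate 2 together. Col6a3, Col4a1 and Col4a2 are outside the rule for naming and were chosen after their values were seen, to complete the list.

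Matrix glycoproteins and elastic fibre genes were lower in all 22 cases tested by sign (median -0.53), with 7 called. Thbs1, thrombospondin 1, a matrix regulator of TGF-beta and vessels, stood at 595, 578, 619.8 and 531 CPM in ND_PMA and 350.2, 306, 392 and 369 CPM in HFD_PMA (log2 fold change -0.71, SE 0.10, edgeR adjusted p = 0.00171). Both groups were tight and far apart. Bgn, the proteoglycan biglycan, was at 474, 672, 545 and 519 CPM in ND_PMA and 347, 335, 333 and 382 CPM in HFD_PMA (log2 fold change -0.66, SE 0.11, edgeR adjusted p = 0.00319). Fmod, fibromodulin, which shapes collagen fibrils, was at 614 ± 192 CPM in ND_PMA and 297 ± 85.4 CPM in HFD_PMA (SD, n = 4; log2 fold change -1.05, SE 0.23, edgeR adjusted p = 0.0192). Eln, elastin, was at 110.1 ± 15.4 CPM in ND_PMA and 59.1 ± 9.61 CPM in HFD_PMA (SD, n = 4; log2 fold change -0.90, SE 0.18, edgeR adjusted p = 0.0113), and Fn1, fibronectin, at 539.7 ± 132 CPM in ND_PMA and 283 ± 82.1 CPM in HFD_PMA (SD, n = 4; log2 fold change -0.93, SE 0.18, edgeR adjusted p = 0.0103). The HFD_PMA values of each of these 5 genes were all below the ND_PMA values. Without HFD_PMA replicate 2 the count called was 2, and it was also 2 without HFD_PMA replicate 1 and ND_PMA replicate 2. Calls ended for Fmod (3 libraries, edgeR adjusted p = 0.0896 without HFD_PMA replicate 2), Eln (1 library, edgeR adjusted p = 0.0519 without HFD_PMA replicate 2) and Fn1 (1 library, edgeR adjusted p = 0.0526 without HFD_PMA replicate 2).

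Matrix enzymes followed in part. Adamts14, which trims procollagen, stood at 32.3, 55.5, 37.1 and 45.3 CPM in ND_PMA and 17.8, 16.5, 26.4 and 17.3 CPM in HFD_PMA (log2 fold change -1.12, SE 0.20, edgeR adjusted p = 0.00604), with the groups apart. Mmp2, a gelatinase of fibroblasts, was at 419, 610.4, 418 and 415 CPM in ND_PMA and 318, 273, 354 and 287 CPM in HFD_PMA (log2 fold change -0.60, SE 0.12, edgeR adjusted p = 0.0152). It was among 2 called, both lower, of 19 metalloproteinases and inhibitors. Gsn, gelsolin, an actin-severing protein with a secreted plasma form, was the most abundant gene called lower, at 7909, 11279, 7281 and 7537 CPM in ND_PMA and 4322, 3932, 5673 and 4986 CPM in HFD_PMA (log2 fold change -0.85, SE 0.16, edgeR adjusted p = 0.00837). Ear cartilage genes were lower as well, 4 of 14 tested (median -0.73). Col2a1, the main collagen of cartilage, was at 33.8, 59.6, 18.2 and 36.7 CPM in ND_PMA and 10.6, 7.23, 17.3 and 12.4 CPM in HFD_PMA (log2 fold change -1.64, SE 0.33, edgeR adjusted p = 0.0115), and Comp, a cartilage oligomeric protein, at 88.6 ± 23.3 CPM in ND_PMA and 48.6 ± 12.8 CPM in HFD_PMA (SD, n = 4; log2 fold change -0.87, SE 0.22, edgeR adjusted p = 0.0406). HFD_PMA lay below ND_PMA in every library for Col2a1 and Comp. The cartilage count was 0 without HFD_PMA replicate 2, 1 without HFD_PMA replicate 1 or ND_PMA replicate 2, and 0 without the latter pair together. Calls ended for Mmp2 (3 libraries, edgeR adjusted p = 0.0882 without HFD_PMA replicate 2), Gsn (1 library, edgeR adjusted p = 0.0525 without HFD_PMA replicate 2), Col2a1 (1 library, edgeR adjusted p = 0.0573 without HFD_PMA replicate 2) and Comp (6 libraries, edgeR adjusted p = 0.157 without HFD_PMA replicate 2).

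Summed fibroblast markers lay between 4127 and 4510 CPM in ND_PMA and between 2896 and 3950 CPM in HFD_PMA, with 2 of 14 called lower. Cartilage markers summed to 470 to 695 CPM in ND_PMA and to 319 to 400 CPM in HFD_PMA, adipocyte markers to 1160.0 to 1594 CPM and 893 to 1121 CPM, and lymphatic endothelial markers to 175 to 260.0 CPM and 143 to 166 CPM. In these 4 sums all HFD_PMA libraries lay below all ND_PMA libraries, while the keratinocyte sum lay above. The fibroblast sum includes Col1a2, one of the collagens called lower above. It gave 887 of 3950 CPM in HFD_PMA replicate 3 and 1141 of 4127 CPM in ND_PMA replicate 4. The lack of overlap in the fibroblast sum depends on that gene and is not separate from the collagen result. Skeletal muscle markers, with 5736 to 12228 CPM in ND_PMA and 5074 to 6152 CPM in HFD_PMA, and vascular markers, with 368 to 558 CPM and 304 to 397 CPM, overlapped. Hair shaft and inner root sheath markers overlapped too, with 25.5 to 181 CPM and 85.1 to 3624 CPM. All 18 tested had a positive log2 fold change (median 3.92), and 1 was called higher. In untreated skin their median was 5.74, with 2 called higher. The part of HFD_PMA replicate 1 in the hair values was not tested, nor was that of the marker sums in the matrix results. The plot of marker sums shows each library.

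**Figure D3:**
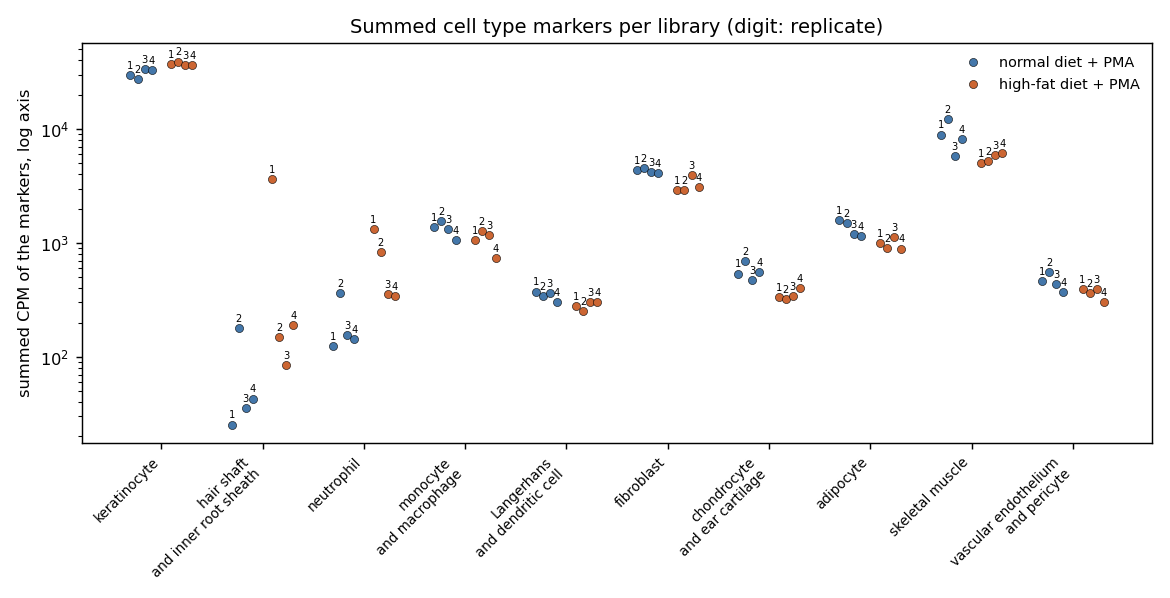
Summed CPM of cell type markers in each PMA-treated library, on a log axis, with the replicate number over each point. HFD_PMA replicate 1 stands out in hair markers (3624 CPM). HFD_PMA replicates 1 and 2 stand out in the neutrophil sum, which is mostly S100a8 and S100a9 there. The fibroblast and cartilage sums of HFD_PMA lie below those of ND_PMA, and the fibroblast sum includes the called collagen gene Col1a2.

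Genes of resident macrophages and dendritic cells were lower where they passed the test. Summed monocyte and macrophage markers overlapped, with 1066 to 1557 CPM in ND_PMA and 734 to 1273 CPM in HFD_PMA. So did Langerhans and dendritic cell markers, with 301 to 374 CPM and 251 to 305 CPM. Of the markers tested, 4 of 15 and 4 of 13 had a positive log2 fold change. Cd163, the haemoglobin scavenger receptor of resident macrophages, stood at 121, 149, 119.8 and 92 CPM in ND_PMA and 60.8, 72.1, 64.3 and 36.2 CPM in HFD_PMA (log2 fold change -1.04, SE 0.20, edgeR adjusted p = 0.00928). Csf1r, the receptor for the growth factor that macrophages need, was at 212 ± 43.6 CPM in ND_PMA and 132 ± 23.5 CPM in HFD_PMA (SD, n = 4; log2 fold change -0.69, SE 0.18, edgeR adjusted p = 0.0423). These were the 2 called of 15 monocyte and macrophage markers (median -0.22). C3ar1, the receptor for complement fragment C3a, was at 50.3 ± 9.28 CPM in ND_PMA and 23.4 ± 10.7 CPM in HFD_PMA (SD, n = 4; log2 fold change -1.10, SE 0.29, edgeR adjusted p = 0.0496). Cd209e, a lectin related to DC-SIGN, was at 22, 19.2, 17.6 and 12.1 CPM in ND_PMA and 5.68, 2.7, 4.85 and 3.39 CPM in HFD_PMA (log2 fold change -2.09, SE 0.32, edgeR adjusted p = 0.00265). All HFD_PMA libraries were under 6 CPM and all ND_PMA libraries over 12 CPM. Cd209a, a lectin of dermal dendritic cells, was at 88.5, 78.9, 63.9 and 46.4 CPM in ND_PMA and 24.7, 27.3, 53.2 and 28 CPM in HFD_PMA (log2 fold change -1.06, SE 0.24, edgeR adjusted p = 0.0268), with HFD_PMA replicate 3 inside the ND_PMA range. Wdfy4, needed for cross-presentation in dendritic cells, was -1.92 (edgeR adjusted p = 0.0171). They were the 3 called of 13 Langerhans and dendritic cell markers, and none of 12 MHC class II genes was called. Calls ended for Csf1r (6 libraries, edgeR adjusted p = 0.16 without ND_PMA replicate 2), C3ar1 (7 libraries, edgeR adjusted p = 0.133 without HFD_PMA replicate 3), Cd209a (6 libraries, edgeR adjusted p = 0.103 without HFD_PMA replicate 2) and Wdfy4 (3 libraries, edgeR adjusted p = 0.0652 without ND_PMA replicate 2). Cd209 genes are a family of near copies, so reads may have been divided among them.

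Some genes outside these groups had large differences. Slc6a2, the noradrenaline transporter of sympathetic nerve endings, stood at 35.8, 46.3, 49.2 and 30.01 CPM in ND_PMA and 14.1, 13.7, 19.3 and 17.8 CPM in HFD_PMA (log2 fold change -1.32, SE 0.21, edgeR adjusted p = 0.00265). Hhatl, a gene of striated muscle, was at 68.4, 76.2, 39.8 and 37.8 CPM in ND_PMA and 14, 23, 15.8 and 19.6 CPM in HFD_PMA (log2 fold change -1.62, SE 0.30, edgeR adjusted p = 0.00837). Both had all HFD_PMA libraries below ND_PMA. Serpina3g, a serpin of a large near-identical family, was at 19.8 ± 4.16 CPM in ND_PMA and 6.2 ± 2.53 CPM in HFD_PMA (SD, n = 4; log2 fold change -1.67, SE 0.33, edgeR adjusted p = 0.0113). Prkd1, protein kinase D1, a kinase that binds diacylglycerol and phorbol esters, was at 9.7, 10.6, 7.15 and 9.46 CPM in ND_PMA and 2.02, 1.51, 3.13 and 3.76 CPM in HFD_PMA (log2 fold change -1.83, SE 0.40, edgeR adjusted p = 0.0208). It was the one called of 9 genes on the protein kinase C list. Prkd1 is not itself a protein kinase C isoform, so none of the isoforms on that list was called. Fetub, a fetuin, rose from 1.58, 1.87, 2.31 and 1.34 CPM to 17.1, 23.4, 16.4 and 7.15 CPM (log2 fold change 3.16, SE 0.60, edgeR adjusted p = 0.00855). Ankk1, a kinase with ankyrin repeats, was at 2.07, 3.86, 2.31 and 0.822 CPM in ND_PMA and 18.8, 21.5, 11.8 and 10.9 CPM in HFD_PMA (log2 fold change 2.77, SE 0.50, edgeR adjusted p = 0.00706). In both the 4 HFD_PMA libraries were above the 4 of ND_PMA. The call ended for Prkd1 (3 libraries, edgeR adjusted p = 0.0847 without HFD_PMA replicate 2).

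**Figure D4:**
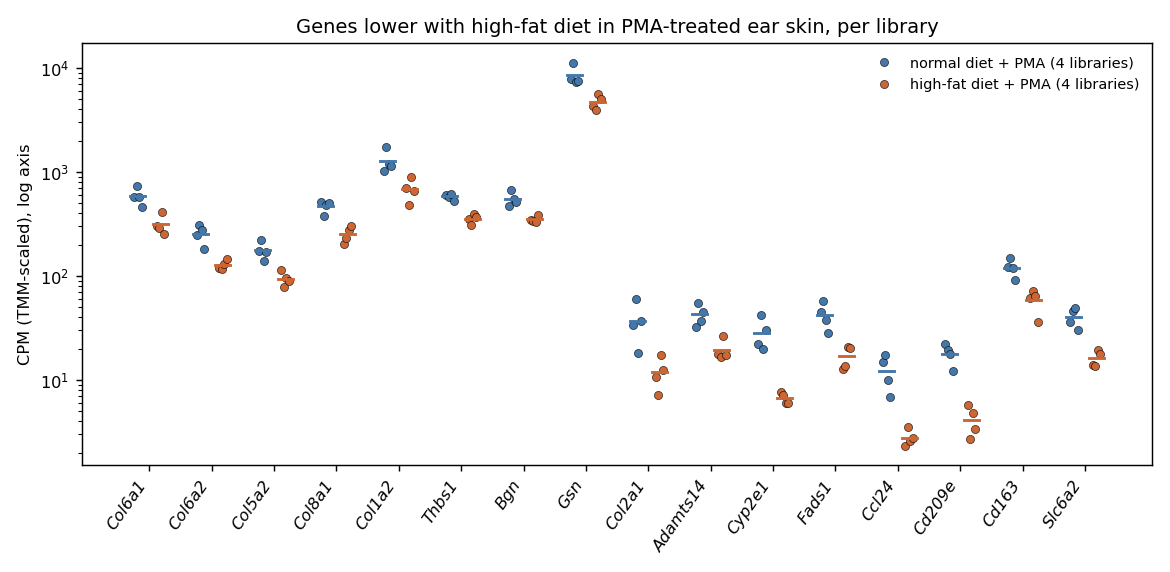
Level of 16 genes called lower with high-fat diet in PMA-treated ear skin, in CPM on a log axis. Each point is 1 library (4 per group, replicates 1 to 4 from left to right) and each bar the group mean. The 4 HFD_PMA points lie below the 4 ND_PMA points for every gene shown, which was part of the naming rule for some of them.

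The diet difference in PMA-treated skin was then set beside that in untreated skin (HFD_cont against ND_cont), which shares no library with it. In untreated skin 691 genes were called (3.93%), 505 higher (2.87%) and 186 lower (1.06%). Of the 387 called after PMA, 181 were also called there in the same direction, which is 46.8% of the PMA-treated calls and 26.2% of the untreated calls, and none in the opposite direction. The sign of the estimate was the same for 364 of the 387 (94.1%), against 66.7% of all genes tested. By direction these were 111 of the 166 genes called higher (66.9%) and 70 of the 221 called lower (31.7%), and the difference between these shares was not tested. Krt1 also differed in untreated skin, by 1.89 on the log2 scale (edgeR adjusted p = 3.85e-05), Klk8 by 1.36 (adjusted p = 3.82e-07) and Cyp2e1 by -1.78 (adjusted p = 0.00041). Col6a2 differed by -0.63 (adjusted p = 0.0159) and Il1f6 by 2.37 (adjusted p = 2.1e-05). In the untreated groups the library ID prefix differs (RHS for all ND_cont libraries and 1 HFD_cont library, RHP for the others), so that prefix and diet overlap almost wholly there, while all 8 PMA-treated libraries carry RHP.

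Ccl24, Tslp and Ccl3 were called after PMA and not in untreated skin, where their estimates had the opposite sign. For Ccl24 the untreated estimate was 0.32 (edgeR adjusted p = 0.722) against -2.14 after PMA, for Tslp 0.25 (adjusted p = 0.823) against -1.45, and for Ccl3 -1.72 (adjusted p = 0.426) against 3.95. Ccl3 was near the floor in untreated skin, at 0.625 ± 0.581 CPM in ND_cont and 0.212 ± 0.356 CPM in HFD_cont (SD, n = 4), so its sign there carries little weight. The test of the difference between the 2 diet effects did not pass for Ccl24, Tslp or Ccl3, with edgeR adjusted p of 0.187, 0.74 and 0.278. Nor did it for Klk6, which had the second smallest p: 2.56 in untreated and 0.82 in PMA-treated skin (difference -1.74, SE 0.29, edgeR adjusted p = 0.0667). One gene of 17604 (0.00568%) was called in that test by edgeR, 22 by DESeq2, and 815 (4.63%) had an unadjusted p below 0.05. The one was Teddm3 on chromosome 16, a gene of a transmembrane protein family. It stood at 8.36 ± 1.56 CPM in ND_cont and 57.7 ± 12.6 CPM in HFD_cont and at 84.7, 91, 97.7 and 91.7 CPM in ND_PMA and 137, 191, 156 and 138 CPM in HFD_PMA (SD, n = 4 for the untreated means). The diet difference was thus 2.79 on the log2 scale without PMA and 0.77 with it (difference -2.02, SE 0.23, edgeR adjusted p = 0.000538). ND_PMA was far above ND_cont, and HFD_cont lay between them. All ND_cont libraries carry the prefix RHS and all ND_PMA libraries RHP, so prefix and PMA cannot be told apart between those groups. The part of the prefix in the Teddm3 difference was not tested. In PMA-treated skin the call ended for Teddm3 (1 library, edgeR adjusted p = 0.0536 without HFD_PMA replicate 2), as it did in the chemokine, cytokine and kallikrein results above for Ccl3 (2 libraries, edgeR adjusted p = 0.0674 without HFD_PMA replicate 2), Tslp (7 libraries, edgeR adjusted p = 0.109 without HFD_PMA replicate 1) and Klk6 (5 libraries, edgeR adjusted p = 0.121 without HFD_PMA replicate 2).

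**Figure D5:**
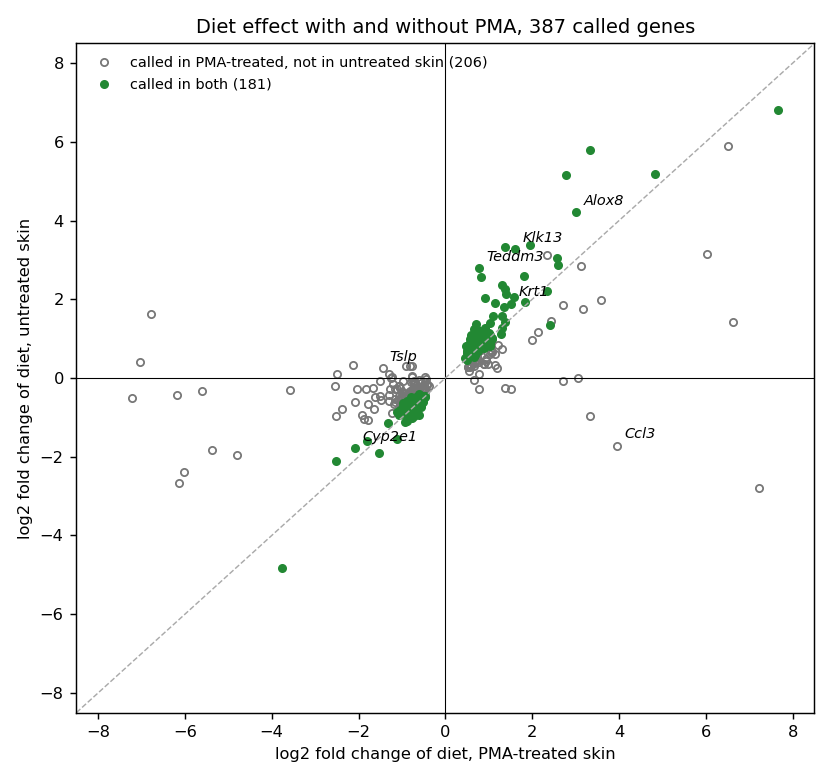
Log2 fold change of high-fat over normal diet in PMA-treated skin (horizontal) and untreated skin (vertical) for the 387 genes called in PMA-treated skin, with the line of equality dashed. The 181 filled points were also called in untreated skin and all lie in the 2 quadrants of equal sign. Ccl3, which was near the floor in untreated skin, and Tslp are among the open points with opposite signs.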

How the data were processed

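RNA from ear skin was sequenced with SMARTSeq v2 libraries in 16 samples, 8 of them PMA-treated. The deposited unit is whole-number read counts per gene, per the file headers and values; STAR 2.3 and featureCounts 1.5 are named, per the submitters' processing notes, with the builds GRCm38 and mm10, and none of these says whether strand was used. From the counts, genes passing edgeR's filterByExpr (minimum count 10, minimum total 15) were fitted in 1 model of 4 group means over all 16 libraries (edgeR 4.0.16, R 4.3.3, TMM, robust quasi-likelihood), and p-values were BH-adjusted over 17604 genes with a threshold of 0.05. CPM values, means and SDs are after TMM scaling. For edgeR, the SE of a log2 fold change is its absolute value divided by the square root of the quasi-likelihood F. The procedure was tested on simulated data. DESeq2 1.42.0, other scalings and filters, a replicate block and left-out libraries were alternatives.

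The comparison, the 43 gene lists and 19 marker lists were chosen with earlier results of these data known, so list counts are descriptions. Genes were named by a rule: called genes of at least 5 CPM on average whose groups do not overlap (the 30 largest changes each way), the 20 most abundant called genes, and up to 6 called members of each list. Names and positions follow the count table and GENCODE M21. Of 99 named genes 13 share exon bases with another gene, 9 only with genes of the opposite strand. The 9 are Klk8, Ndufa4l2, Ube2c, Col4a1, Col4a2, Eln, Thbs1, Csf1r and Fn1. Pla2g4e, Rps2, mt-Nd1 and Col3a1 share bases with a gene on the same strand. Same-numbered ND_PMA and HFD_PMA libraries did not deviate together (correlations -0.07 to 0.04), so numbers were not taken as pairs. Replicates differed by more than counting noise in every pair.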

Additional observations from a re-analysis of the deposited data

Results flagged for a closer look

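In 236 groups of 4 PMA-treated libraries (the named genes and the marker sums), 13 held a library that stood apart from the other 3 by Dixon's gap ratio at its 95% critical value; about 1 in 20 groups does so by chance. ND_PMA replicate 2 accounted for 8 of the 13. It was high in Sprr2h (54.7 CPM against 32.7 to 35.5 CPM in the others), Uox (13.8 against 1.88 to 3.57 CPM), Mmp2 (610.4 against 415 to 419 CPM) and Gsn (11279 against 7281 to 7909 CPM), and low in Ccnb2 (21.7 against 35.3 to 36.3 CPM). It was also high in the summed neutrophil markers (366 against 124 to 154 CPM), T cell and NK cell markers (90.1 against 75.2 to 77.3 CPM) and hair shaft markers (181 against 25.5 to 43.1 CPM).

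HFD_PMA replicate 1 stood apart in hair shaft markers (3624 against 85.1 to 191 CPM) and in erythrocyte markers (159 against 55.7 to 73.0 CPM). HFD_PMA replicate 3 was high in Adamts14 (26.4 against 16.5 to 17.8 CPM) and Cd209a (53.2 against 24.7 to 28.0 CPM), and HFD_PMA replicate 4 in Cyp2b23 (13.8 against 1.73 to 2.82 CPM).

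The diet effect on Teddm3 was smaller after PMA than in untreated skin by 2.02 on the log2 scale (difference -2.02, edgeR test of the interaction). In the untreated groups library ID prefix and diet overlap almost wholly, and the part of the prefix was not tested.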

How the results depend on the processing

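The count of genes called in PMA-treated skin was 387 with all libraries and ran from 116 to 436 when 1 library of the 16 was left out (63 to 207 higher, 53 to 241 lower); it was lowest without HFD_PMA replicate 2, when 111 of the 116 were among the 387. DESeq2 called 850 (446 higher, 404 lower), 374 of them among the 387, with 22 in the interaction and 1149 in untreated skin. A fit to the 8 PMA-treated libraries alone called 175 (57 lower), and one without HFD_PMA replicate 1 and ND_PMA replicate 2, chosen after seeing the data, 191 (65 lower). The interaction count of 1 was 2 with no low-count filter and 2 with a filter of 5 CPM in 4 libraries, and 1 to 4 with a library left out; the untreated count of 691 was 336 to 889. With a replicate block the count was 358 (152 higher, 206 lower) and the interaction count 2; the numbers share no source in the labels, and 1 of 4 ND_PMA libraries correlated best with its own number. Scaling by RLE gave 203 higher and 183 lower. The causes of these shifts were not tested.

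Of 97 called genes named here 43 kept their call without each PMA-treated library in turn and 37 in every setting; 54 lost it without at least 1, 53 of these without HFD_PMA replicate 2. None reversed. Depth and 4 animals a group limit what can be seen: the median SE of a log2 fold change was 0.26, near the size of many differences that were not called.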
